A study of Mus musculus with 6 samples.

Results

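*Myoc*, *Atoh8*, *Tnn* and *Cpm* are the 4 genes outside the Id family whose RNA was most increased in HC11 cells cultured with BMP7. HC11 is an established mouse mammary epithelial line that the study uses to stand for luminal cells, and all samples came from this line, kept in medium with BMP7 protein (BMP7, 3 libraries) or in medium without it (Ctrl, 3 libraries). The methods give 2 lengths of BMP7 exposure for HC11 cells after starvation, one of minutes and one of hours, without saying which was used for these libraries, and the labels do not say whether the libraries of a group came from separate cultures, so p-values measure the spread between these libraries, which may be technical. The 4 genes were chosen by their measured rise among the 55809 genes of the deposited counts. They have the largest log2 fold change outside the Id family among those whose mean CPM, the count scaled to library size, was 1 or more and whose BMP7 libraries were all higher than the Ctrl libraries. Since the rise selected them, their values are described here without a test.

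BMP7 is a secreted ligand of the bone morphogenetic protein family. It binds pairs of serine/threonine kinase receptors, which phosphorylate SMAD proteins that enter the nucleus with SMAD4 and act on target genes, of which the Id genes are among the best known. The products of the 4 genes differ in kind. *Myoc* encodes myocilin, a secreted glycoprotein with an olfactomedin domain that is best known from the trabecular meshwork of the eye. *Atoh8* encodes a basic helix-loop-helix transcription factor of the atonal group. *Tnn* encodes tenascin-W, a glycoprotein of the extracellular matrix known from developing bone and from the stroma of tumors. *Cpm* encodes carboxypeptidase M, an enzyme anchored to the outside of the cell membrane that removes a basic amino acid from the end of peptides such as kinins.

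Counts were deposited for between 19858701 and 20327200 fragments in the Ctrl libraries and between 14607938 and 23748970 in the BMP7 libraries, and 15733 genes passed the filter on low counts. Libraries are named by the numbers of their columns, which are 1, 2 and 3 for Ctrl and 1, 3 and 4 for BMP7. Of 12 epithelial markers, 11 were measured at a level that could be tested, and *Krt19* had at most 8 counts in any library. Of the 11, *Krt14* and *Trp63* were higher with BMP7, and *Cldn3*, *Cdh1*, *Krt18* and *Epcam* were lower in edgeR, of which *Cdh1* was not called by DESeq2. Over all tested genes, 5.99% were called higher and 5.38% lower in edgeR. In other data the study marks basal cells by *Krt14* and *Krt5* and luminal cells by *Krt18* and *Krt8*. In Ctrl here, the means of these genes were 3489, 2643, 49.5 and 63.2 CPM, in that order. BMP7 3 and BMP7 4 stood apart from the other libraries in genes of other cell types. The summed level of 10 adipocyte markers was 91.2 CPM in BMP7 3 and 79.9 in BMP7 4, against 27.0 in BMP7 1 and between 14.8 and 24.99 in Ctrl. That of 10 macrophage markers was 28.4 and 27.3 CPM in the same libraries, against 49.97 in BMP7 1 and between 48.5 and 52.5 in Ctrl. *Lyz2* alone was at 6.76 and 6.94 CPM in BMP7 3 and BMP7 4, against 22.5 in BMP7 1 and between 25.5 and 26.6 in Ctrl. The macrophage markers did not all fall. *Cd68*, another of the 10, was higher in all BMP7 libraries than in Ctrl, with means of 13.68 and 11.27 CPM. It was not called (log2 fold change 0.27, adjusted p = 0.145 in edgeR's test). Of the 6 tested macrophage markers, edgeR called 2 lower and DESeq2 called 0. The source of this marker RNA was not tested, and RNA from whole cultures cannot separate the number of cells of a type from the RNA per cell.

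*Myoc* lies on the plus strand of chromosome 1, from 162466724 to 162477262 in the mm39 annotation of the deposited counts, with 3 exons after merging its transcripts. *Tnn* lies on the minus strand of the same chromosome from 159912599 to 159981150, with 22 merged exons. *Atoh8*, with 4 merged exons, lies on the minus strand of chromosome 6 from 72183161 to 72212561, and *Cpm*, with 10, on the plus strand of chromosome 10 from 117465405 to 117523257. Bases before the RefSeq start of each gene are shown because motifs known from BMP-responsive promoters were searched in them. Within the *Tnn* window, an annotated exon or a predicted transcript of this gene begins past base 118. For this reason only bases 250 to 118 and 68 to 39 before its start are printed. They are from RefSeq on GRCm38.p6, a build other than that of the gene positions, read 5′ to 3′ on the strand of the gene, with motif letters in capitals. They cover chr1:162638900-162639149 for *Myoc*, chr6:72235578-72235827 for *Atoh8*, chr10:117629250-117629499 for *Cpm*, and for *Tnn* chr1:160153693-160153825 and, around its motif, chr1:160153614-160153643.
Myoc: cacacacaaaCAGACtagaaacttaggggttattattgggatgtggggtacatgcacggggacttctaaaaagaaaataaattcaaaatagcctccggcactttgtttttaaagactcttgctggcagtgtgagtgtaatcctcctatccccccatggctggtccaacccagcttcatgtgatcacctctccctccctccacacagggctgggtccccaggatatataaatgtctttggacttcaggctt
Atoh8: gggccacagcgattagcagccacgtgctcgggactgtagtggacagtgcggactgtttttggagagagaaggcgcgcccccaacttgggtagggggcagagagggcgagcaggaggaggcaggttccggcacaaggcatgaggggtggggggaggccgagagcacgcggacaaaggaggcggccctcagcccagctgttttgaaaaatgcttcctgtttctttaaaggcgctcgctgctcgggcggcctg
Tnn: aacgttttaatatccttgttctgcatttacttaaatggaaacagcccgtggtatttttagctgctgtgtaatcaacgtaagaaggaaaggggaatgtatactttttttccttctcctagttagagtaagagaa
Tnn, around the motif: gtcccattgattGGCTCCtcctctgtcata
Cpm: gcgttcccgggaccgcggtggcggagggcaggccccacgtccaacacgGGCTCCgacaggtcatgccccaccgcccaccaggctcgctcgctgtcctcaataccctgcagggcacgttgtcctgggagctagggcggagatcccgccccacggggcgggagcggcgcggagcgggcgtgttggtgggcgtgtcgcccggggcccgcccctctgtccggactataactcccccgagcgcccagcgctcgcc

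Matches were sought on both strands in the 250 bases before each start, also where these are not all printed. The motifs were GGCGCC and GGAGCC, which are known from SMAD-bound GC-rich elements, and CAGAC, a SMAD4-type element. GGCGCC was found before none of the 4 genes, and before 9.59% of the 32851 starts of the RefSeq table. GGAGCC was found on the strand opposite to the gene, so that it reads GGCTCC in the printed sequence, before *Tnn*, beginning 56 bases from the start, and before *Cpm*, beginning 202 bases from the start. It was present before 26.0% of all starts. The *Tnn* match lies past the point where an exon or predicted transcript begins, so it may be in transcribed sequence. CAGAC was found 240 bases before the start of *Myoc* and before 42.2% of all starts. None of these matches overlapped another, and *Atoh8* had no match. The windows differed more in base composition. That of *Cpm* had 74.4% G and C with 30 CpG dinucleotides, and that of *Atoh8* 63.2% with 16, while *Myoc* had 46.8% with 2 and *Tnn* 42.0% with 4, against medians of 52.4% and 6 over all starts.

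*Myoc* was almost silent in Ctrl and was readily counted with BMP7. Its counts were 6, 1 and 3 in Ctrl 1, 2 and 3, and 273, 506 and 316 in BMP7 1, 3 and 4. Scaled to library size, these were 0.289, 0.0492 and 0.147 CPM in Ctrl and 19.0, 22.5 and 17.4 CPM with BMP7. The groups were far apart, and the lowest BMP7 library lay 60.2 times above the highest Ctrl library. The log2 fold change from edgeR was 6.87 (standard error 0.26). Over the summed counts, which were 10 in Ctrl and 1095 with BMP7, the ratio of the groups was 123 with a 95% interval from 66.4 to 256. This interval is exact and covers counting error only. *Myoc* shares 93 of its 2074 exon bases with *Myocos*, a gene that overlaps it and was also counted with BMP7 (7, 13 and 10 counts) and in no Ctrl library. The mean level of *Myocos* with BMP7 was at least 3.65-fold higher than the 3 counts that a Ctrl library with 0 counts allows. Fragments that covered both genes were left out of the counts, and strand was not used, so that RNA of the 2 genes cannot be told apart in the shared bases.

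*Atoh8* showed the most even level with BMP7. It had 4, 1 and 0 counts in Ctrl 1, 2 and 3, and 104, 165 and 132 in BMP7 1, 3 and 4. In CPM, Ctrl stood at 0.193, 0.0492 and 0, and BMP7 at 7.25, 7.33 and 7.27. The BMP7 libraries differed among themselves by a coefficient of variation of 0.606%, which is narrower than the counting error of any one of them, since the 104 counts of BMP7 1 have an exact 95% interval from 85.0 to 126. The log2 fold change was 6.38 (standard error 0.38), and the ratio of summed counts, from 5 to 401, was 89.8 with an interval from 38.1 to 278. The fitted value depends on the prior count, and was 5.33 with a prior count of 2. The lowest BMP7 library lay 37.6 times above the highest Ctrl library.

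*Tnn* had 6, 1 and 1 counts in Ctrl 1, 2 and 3, and 105, 220 and 131 in BMP7 1, 3 and 4. Its level was 0.289, 0.0492 and 0.0489 CPM in Ctrl, and 7.32, 9.78 and 7.22 CPM with BMP7. BMP7 3 was the highest library for *Tnn*, at 1.36 times the lowest BMP7 library, and no library of one group reached the other. The log2 fold change was 5.90 (standard error 0.36), and the ratio of summed counts, from 8 to 456, was 63.8 with an interval from 32.1 to 149. In *Myoc*, *Atoh8* and *Tnn* alike, most of the Ctrl counts came from Ctrl 1, which held 6 of 10, 4 of 5 and 6 of 8 of them. Without Ctrl 1 their log2 fold changes were 7.56, 7.88 and 7.20, so that this 1 library decides the size of the rise by more than 1.5 times, though not its direction.

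*Cpm* was the only gene of the 4 with a level in Ctrl that passed the filter on its own, and its rise was measured with the least error. It had 41, 41 and 42 counts in Ctrl 1, 2 and 3, and 942, 1768 and 1182 in BMP7 1, 3 and 4. These were 1.97, 2.02 and 2.05 CPM in Ctrl and 65.7, 78.6 and 65.1 CPM with BMP7. The Ctrl libraries were nearly equal, and BMP7 3 was again the highest. The log2 fold change was 5.11 (standard error 0.12), and the ratio of summed counts, from 124 to 3892, was 35.1 with an interval from 29.4 to 42.4. This interval lies below that of *Myoc*, and overlaps those of *Atoh8* and *Tnn*. The intervals of *Myoc*, *Atoh8* and *Tnn* overlap each other, so that their order by fold is not resolved by these counts.

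**Figure D1:**
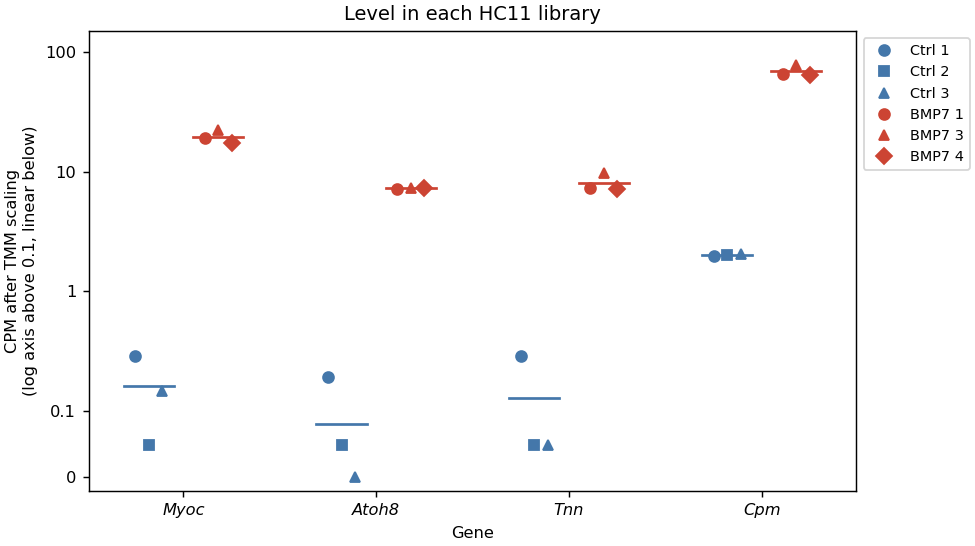
Level of each of the 4 genes in each library, in CPM after TMM scaling, on an axis that is logarithmic above 0.1 and linear below. Points are libraries and bars the mean of 3. Ctrl 1 is the highest Ctrl library for *Myoc*, *Atoh8* and *Tnn*, *Atoh8* has no count in Ctrl 3, and all BMP7 libraries lie at least 24.97 times above the highest Ctrl library of the same gene.

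For the 4 genes together, 57, 44 and 46 fragments were counted in Ctrl 1, 2 and 3, and 1424, 2659 and 1761 in BMP7 1, 3 and 4. The groups did not overlap in any of the 4, as the selection required. Over all genes tested, the BMP7 libraries were all higher than Ctrl for 14.8% and all lower for 15.1%. *Myoc*, *Atoh8* and *Tnn* passed the filter on low counts only through their BMP7 libraries. The 4 genes were also compared between BMP7 1 and the libraries that stood apart in adipocyte and macrophage markers. The mean CPM of BMP7 3 and BMP7 4 was 1.05, 1.01, 1.16 and 1.09 times that of BMP7 1 for *Myoc*, *Atoh8*, *Tnn* and *Cpm*. With BMP7 3 and BMP7 4 left out, the same 4 genes led in the same order. Their log2 fold changes were 6.82, 6.37, 5.75 and 5.02, where the lone BMP7 library was assumed to vary like the Ctrl libraries. BMP7 1 and the Ctrl libraries had also served to choose the 4 genes, so this order is a description.

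To compare the genes with each other, the CPM was divided by the exon length in kilobases (RPKM). With BMP7, *Cpm* stood highest at 11.7 ± 1.28 RPKM (SD, n = 3 libraries), followed by *Myoc* at 9.47 ± 1.25, *Atoh8* at 2.91 ± 0.0176 and *Tnn* at 1.39 ± 0.249. *Cpm* and *Myoc* differed by less than the sum of their SDs, with ranges of 10.9 to 13.2 and 8.39 to 10.8 RPKM, while *Atoh8* and *Tnn* were apart from them and from each other. In Ctrl, *Cpm* was at 0.338 ± 0.00667 RPKM and the other 3 were between 0.0222 and 0.0779 with overlapping libraries. The place of the 4 genes among the tested genes is given as a description, since the filter and the selection on a rise fix a low place in Ctrl for *Myoc*, *Atoh8* and *Tnn*. In Ctrl, 7.21% of the tested genes had a lower mean RPKM than *Cpm* and under 1% (0.667%, 0.0953% and 0.0381%) a lower one than *Myoc*, *Atoh8* and *Tnn*. With BMP7, 68.7% lay below *Cpm*, 63.2% below *Myoc*, 35.3% below *Atoh8* and 23.8% below *Tnn*.

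Of the 14101 tested genes that reached 1 CPM on average, 2169 had all BMP7 libraries above the Ctrl libraries. Among these 2169, *Myoc* and *Atoh8* ranked 1 and 2 by log2 fold change. *Id3* came between *Atoh8* and *Tnn* at 6.31, and *Cpm* ranked 5, followed by *Id1* at 4.28. The next 5 genes outside the Id family were well below *Cpm* (5.11), and are given with no test. They were *Smad9*, which encodes a SMAD of the BMP pathway itself (log2 fold change 3.91), the homeobox gene *Dlx3* (3.87), the chemokine gene *Cxcl12* (3.69), *Tmem151a* (3.62) and *Alpl*, which encodes tissue-nonspecific alkaline phosphatase (3.39). *Alpl* had 26, 14 and 20 counts in Ctrl and 137, 286 and 153 with BMP7. The limit of 1 CPM also kept out 4 genes whose fitted log2 fold change was at least that of *Cpm*, although for those with no Ctrl count the fitted value depends on the prior count and the counts themselves give a smaller bound. *Hoxc13*, another homeobox gene, had 2, 0 and 0 counts in Ctrl and 34, 47 and 22 with BMP7, a mean of 0.961 CPM and a log2 fold change of 5.60. *Gm11514* had 1, 1 and 0 counts in Ctrl and 27, 50 and 26 with BMP7, a mean of 0.939 CPM and a log2 fold change of 5.58. These sat close to the limit, whereas *Igfn1* (0.557 CPM) and *Slc10a4* (0.514) were further under it and had no count in Ctrl. *Igfn1* had 19, 28 and 14 counts with BMP7, and its mean CPM was at least 7.55-fold higher than the 3 counts that a library at 0 allows. *Slc10a4* had 19, 21 and 15, and its mean was at least 6.97-fold higher.

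**Figure D2:**
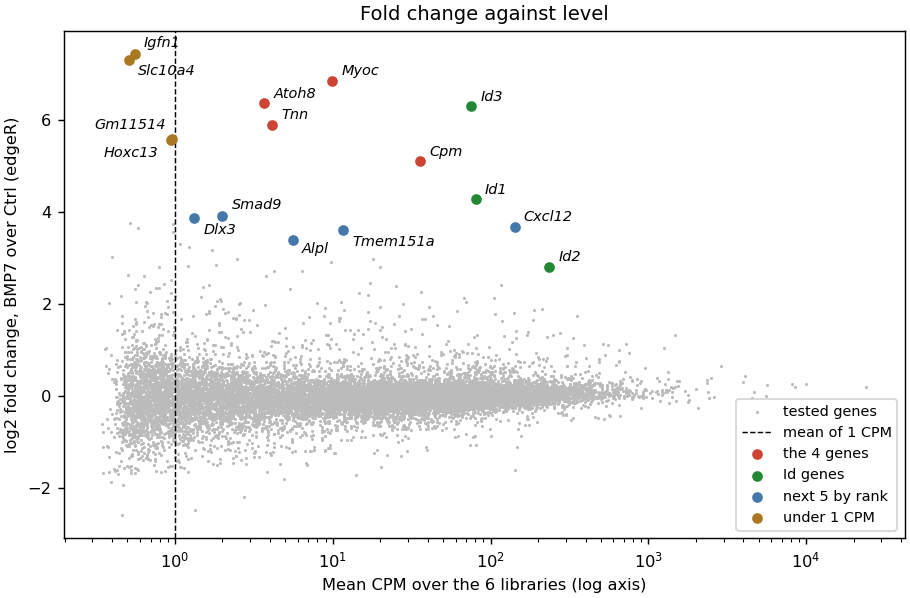
Log2 fold change of BMP7 over Ctrl against the mean CPM of the 6 libraries (logarithmic axis), with 1 point for each of the 15733 tested genes. To the right of the dashed line at 1 CPM, *Myoc*, *Atoh8*, *Id3*, *Tnn*, *Cpm* and *Id1* stand above the rest, the next 5 genes lie between 3.39 and 3.91, and the values of *Igfn1* and *Slc10a4*, which had no Ctrl count, depend on the prior count of the fit.

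The profile over the 6 libraries, as log2 CPM (prior count 2) centred on each gene's mean, was compared with that of every tested gene by the root mean square distance. For *Atoh8* the nearest gene was *Tnn*, at a distance of 0.235, and for *Tnn* it was *Atoh8*. For *Myoc* it was *Id3* (0.390), ahead of *Tnn* (0.572) and *Atoh8* (0.577), and for *Cpm* it was *Id1* (0.398), ahead of *Tnn* (0.488) and *Atoh8* (0.515). The next for *Atoh8* were *Cpm* (0.515) and *Myoc* (0.577), and for *Tnn* likewise *Cpm* (0.488) and *Myoc* (0.572). The distance is dominated by the size of the difference between the 2 groups, in which these genes were selected to be alike, and is given as a description.

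Whether genes beside the 4 also differed was examined in the 5 nearest tested genes on each side of each, which the selection had not used. The gaps to them ran from 1.52 kb, beside *Cpm*, to 3145 kb, beside *Tnn*. Of these 40 neighbours, 8 (20%) were called higher and 1 (2.5%) lower, against 5.99% higher and 5.38% lower among all tested genes, or 11.4% in either direction. Genes were called by the quasi-likelihood test of edgeR where the p adjusted over all tested genes was under 0.05 and the fold exceeded 1.2. The median log2 fold change of the 40 neighbours was 0.089, against -0.006 over all tested genes. The share depended on how far neighbours were counted. Among the 78 genes within the 10 nearest on each side, 8 (10.3%) were higher and 2 (2.56%) lower, or 12.8% in either direction, which is near the 11.4% over all genes. The changes were small beside those of the 4 genes.

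On the lower side of *Myoc*, both nearest genes rose. *Vamp4*, which encodes a vesicle SNARE and ends 40.1 kb away, went from 29.0, 28.3 and 29.98 CPM in Ctrl to 43.1, 47.5 and 44.5 with BMP7, a log2 fold change of 0.63 (SE 0.07, adjusted p = 1.3e-05 in edgeR's test). *Eef1aknmt*, which encodes a methyltransferase of translation elongation factor 1A and lies 90.6 kb away, went from 14.5, 14.1 and 14.8 to 28.4, 27.96 and 27.98 CPM, a log2 fold change of 0.96 (SE 0.09, adjusted p = 6.74e-07 in edgeR's test). The groups did not overlap for either gene, and both calls held when each library was left out in turn. On the other side, the nearest gene *Prrc2c* stood at a log2 fold change of 0.10 (adjusted p = 0.529 in edgeR's test). *Fmo1*, which encodes a flavin-containing monooxygenase, was called 180 kb away with a log2 fold change of 1.79 (adjusted p = 0.0176 in edgeR's test), and its level followed the libraries with high adipocyte markers, whose part in it was not tested. Its counts were 9, 7 and 9 in Ctrl and 8, 51 and 23 in BMP7 1, 3 and 4. The call was lost without Ctrl 1 (adjusted p = 0.0556), without Ctrl 2 (0.0905) and without BMP7 3 (0.2), and the log2 fold change was 0.45 with BMP7 3 and BMP7 4 left out.

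*Tnn* and *Myoc* start 2485.6 kb apart on chromosome 1. Of 76 genes listed between them, 18 were tested. Of these, 3 (16.7%, against 5.99% over all tested genes) were higher, all of them already counted among the neighbours, and 0 were lower in both edgeR and DESeq2, with 1 lower gene at an unadjusted p under 0.05 in edgeR and 0 in DESeq2, and a median log2 fold change of 0.014. The 3 were *Eef1aknmt*, *Vamp4* and, 48.8 kb from *Tnn*, *Cacybp*, which encodes a calcyclin-binding protein and stood at a log2 fold change of 0.46 (adjusted p = 0.00438 in edgeR's test). The other 15 did not pass, which does not show them to be equal between the groups. On the far side of *Tnn*, 4.82 kb from its end, the transcript *4930523C07Rik* rose from 13.5, 12.8 and 14.5 CPM to 23.3, 22.0 and 21.2, a log2 fold change of 0.70 (adjusted p = 7.2e-05 in edgeR's test). Toward *Myoc*, the nearest gene *Mrps14* stood at a log2 fold change of 0.24 (adjusted p = 0.106 in edgeR's test).

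*Atoh8* had 3 called neighbours. *St3gal5*, which encodes the sialyltransferase that makes the ganglioside GM3 and lies 51.6 kb away, went from 4.05, 5.11 and 5.33 CPM in Ctrl to 8.43, 8.05 and 6.89 with BMP7, a log2 fold change of 0.69 (adjusted p = 0.00748 in edgeR's test). *Tmem150a* and *Rnf181*, on the other side, each stood at a log2 fold change of 0.28 (adjusted p = 0.0299 and 0.00554 in edgeR's test). Of these, *Tmem150a* stayed past the threshold in only 2 of the 6 fits that left out a library, being lost without Ctrl 1, 2 or 3 or BMP7 3 (adjusted p from 0.0702 to 0.144), and *Rnf181* was lost without BMP7 1, where its fold fell under 1.2. *Usp39*, the nearest gene on that side, stood at a log2 fold change of 0.09 (adjusted p = 0.374 in edgeR's test).

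*Cpm* had 0 higher neighbours in edgeR's test, and 1 at an unadjusted p under 0.05. *Mdm2*, which encodes the ubiquitin ligase of p53 and lies 1.52 kb beyond the end of *Cpm*, had 63.8, 67.4 and 67.2 CPM in Ctrl and 76.5, 84.0 and 76.9 with BMP7. Its log2 fold change of 0.26 had an adjusted p of 0.0125 in edgeR's test and fell just short of the fold of 1.2, whereas DESeq2 called it higher. *Cpsf6*, the nearest on the other side, stood at a log2 fold change of 0.05 (adjusted p = 0.68 in edgeR's test). *Lyz2*, a lysozyme gene, was lower by the same test (log2 fold change -1.18, adjusted p = 0.0121). It had 26.3, 26.6 and 25.5 CPM in Ctrl and 22.5, 6.76 and 6.94 in BMP7 1, 3 and 4. As one of the summed macrophage markers, *Lyz2* was itself a large part of the low sum in BMP7 3 and BMP7 4. Its call was lost with DESeq2 (adjusted p = 0.225) and without Ctrl 2, BMP7 3 or BMP7 4 (adjusted p from 0.052 to 0.0604 in edgeR), and its log2 fold change was -0.21 with BMP7 3 and BMP7 4 left out.

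**Figure D3:**
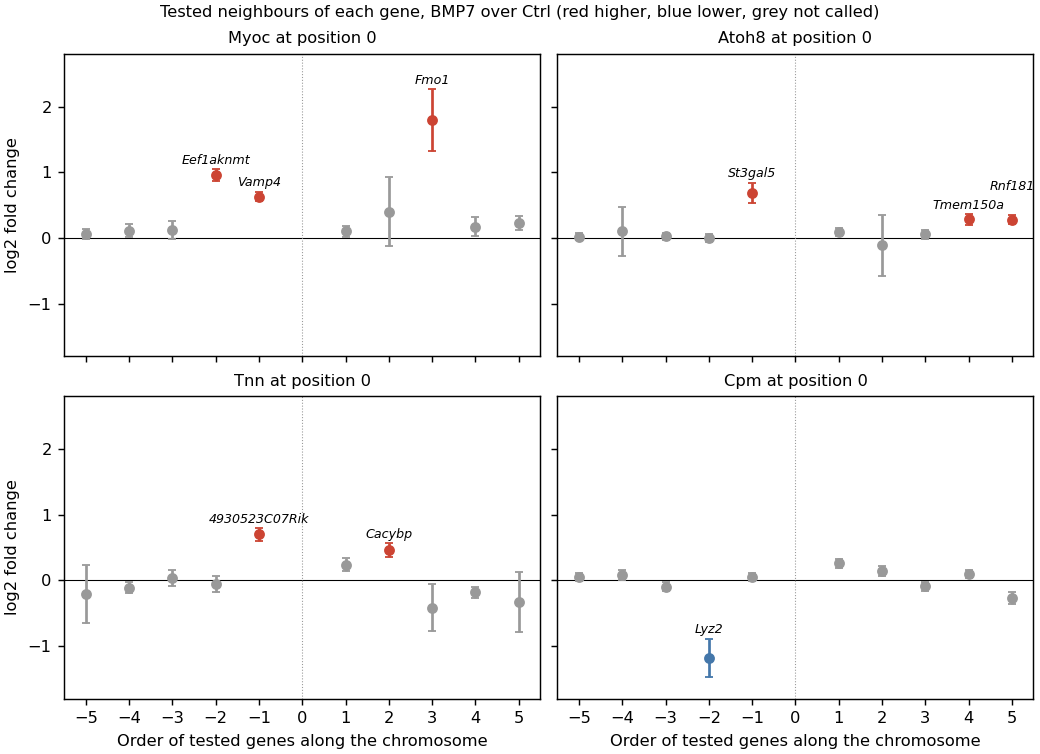
Log2 fold change (points) and standard error (bars) of the 5 nearest tested genes on each side of *Myoc*, *Atoh8*, *Tnn* and *Cpm*, in their order along the chromosome. Of 40 neighbours, 8 are higher (red) and 1 lower (blue) with BMP7, the called ones other than *Fmo1* and *Lyz2* lie between 0.28 and 0.96, and *Fmo1* and *Lyz2* have wide error bars.

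Genes related to each of the 4 were then examined by family, to see whether the rise was shared by relatives and partners. Over 8 such lists with 68 genes, only 25 were tested, since most had too few counts, and 4 (16%) were higher and 2 (8%) lower, against 5.99% and 5.38% over all tested genes. The largest log2 fold change among these was 2.52. That none exceeded *Cpm* was fixed by the selection for genes that met its limits.

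Of 12 genes of the olfactomedin family of *Myoc*, 4 were tested and 0 passed in edgeR or DESeq2, while 1 had an unadjusted p under 0.05 in each. That was *Olfml3*, at 0.819, 1.57 and 1.17 CPM in Ctrl and 1.25, 2.49 and 2.31 with BMP7 (log2 fold change 0.79, adjusted p = 0.139 in edgeR's test). *Adgrl1*, *Adgrl2* and *Adgrl3*, which encode the latrophilin receptors, had log2 fold changes between -0.02 and 0.11. The other 8 had at most 12 counts in any library.

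Of 15 atonal-related basic helix-loop-helix genes, the relatives of *Atoh8*, none passed the filter and 10 had no count in any library, with at most 5 counts for any of the others. *Atoh8* itself was the one atonal-related gene examined here that could be tested. The E proteins, common dimerization partners of such factors, were all tested, and *Tcf3*, *Tcf12* and *Tcf4* had log2 fold changes of 0.11, 0.01 and -0.06, with 0 of the 3 past the threshold and 0 at an unadjusted p under 0.05 in edgeR or DESeq2. Id proteins are known to bind E proteins.

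*Tnc*, which encodes tenascin-C, rose alongside *Tnn*. It had 9084, 8699 and 8713 counts in Ctrl and 11705, 20648 and 15604 with BMP7, or 430 ± 6.17 and 864 ± 51.1 CPM (SD, n = 3 each), with a log2 fold change of 1.01 (SE 0.06, adjusted p = 9.98e-09 in edgeR's test). *Tnxb* stood at a log2 fold change of -0.50 (adjusted p = 0.535 in edgeR's test), and *Tnr* had no count in any library. Among 10 integrin genes whose products bind tenascins, 9 were tested, and 0 were higher and 1 lower in both edgeR and DESeq2, with 1 higher at an unadjusted p under 0.05 in edgeR and 2 in DESeq2. The lower gene was *Itgb3*, at 63.1, 66.4 and 76.8 CPM in Ctrl and 48.8, 51.4 and 51.5 with BMP7 (log2 fold change -0.44, adjusted p = 0.000751 in edgeR's test). *Itgb8* was lower by adjusted p (0.0481 in edgeR's test) but not by fold (log2 fold change -0.23), and *Itga7* missed the threshold with a log2 fold change of 1.43 (adjusted p = 0.0536).

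*Cpm* belongs to the carboxypeptidase N/E group, of which 3 of 7 other genes were tested. *Aebp1*, which encodes an extracellular protein with a carboxypeptidase-like domain, rose from 972, 983 and 967 counts in Ctrl to 2402, 3729 and 2905 with BMP7, or from 47.5 ± 0.773 to 164 ± 3.87 CPM (SD, n = 3 each), with a log2 fold change of 1.79 (SE 0.06, adjusted p = 6.14e-12 in edgeR's test). *Cpe* and *Cpd* had log2 fold changes of -0.02 and -0.18 and did not pass. Of 9 genes of the carboxypeptidase A/B group, 8 were found in the counts and none passed the filter. In the kinin system, whose peptides carboxypeptidase M can trim, both receptors rose. *Bdkrb2*, the receptor of intact bradykinin, had 94, 143 and 87 counts in Ctrl and 483, 639 and 449 with BMP7 (log2 fold change 2.45, SE 0.16, adjusted p = 1.79e-08 in edgeR's test). *Bdkrb1*, the receptor of kinins that have lost their last arginine, had 9, 4 and 4 counts in Ctrl and 24, 39 and 26 with BMP7 (log2 fold change 2.52, SE 0.41, adjusted p = 0.000419 in edgeR's test).

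Among genes of other enzymes known to degrade kinins, *Mme* and *Ace* were tested. *Mme*, which encodes neprilysin, fell from 81.3, 73.8 and 84.7 CPM in Ctrl to 43.1, 40.8 and 47.5 with BMP7 (log2 fold change -0.87, adjusted p = 5.28e-07 in edgeR's test). *Ace*, which encodes angiotensin-converting enzyme, had a log2 fold change of 0.30 and did not pass (adjusted p = 0.449 in edgeR's test). The kininogen genes *Kng1* and *Kng2*, which encode the kinin precursors, had at most 2 and 13 counts in any library and were not tested. All 6 calls of the family lists held when each library was left out in turn.

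**Figure D4:**
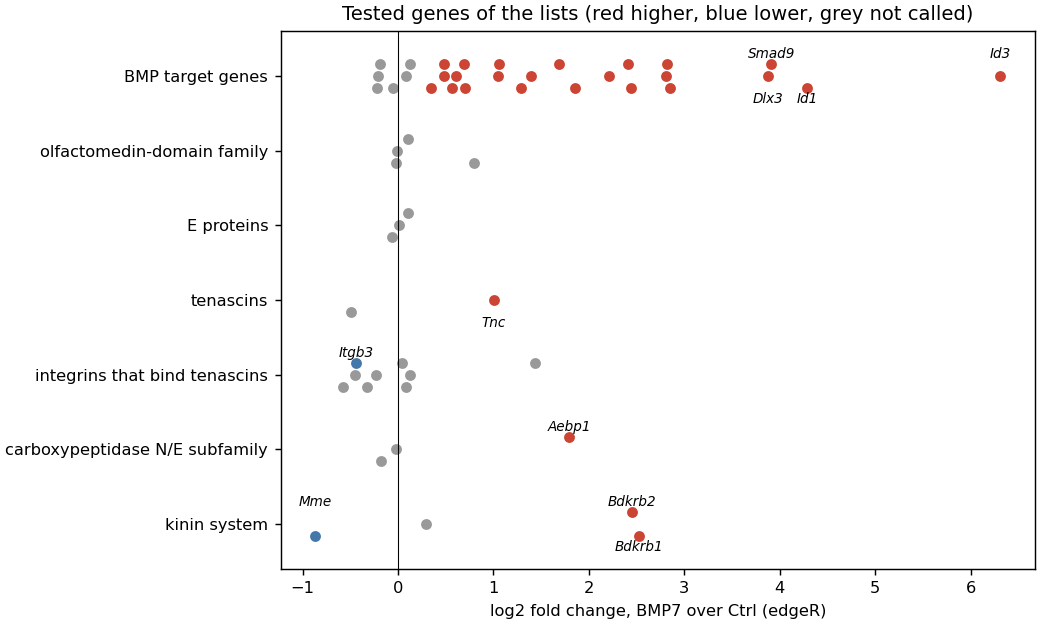
Log2 fold change of the tested genes of 7 lists, with 1 point per gene. Most BMP target genes lie to the right of 0, whereas of the relatives and partners of the 4 genes only *Tnc*, *Aebp1*, *Bdkrb1* and *Bdkrb2* are higher (red) and *Itgb3* and *Mme* lower (blue). The atonal-related and carboxypeptidase A/B lists had no tested gene.

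The 4 genes were set beside 34 genes known as targets or regulators of BMP signaling. Of these, 29 were tested. In edgeR, 23 (79.3%) were higher and 0 lower, against 5.99% and 5.38% over all tested genes, and DESeq2 gave the same counts. Neither gave a lower gene at an unadjusted p under 0.05, and the median log2 fold change of the 29 was 1.06. *Id3*, *Id1*, *Smad9* and *Dlx3* were already named above by their rise. The 8 with the largest change were *Id3* (log2 fold change 6.31), *Id1* (4.28), *Smad9* (3.91), *Dlx3* (3.87), *Gata2*, which encodes a zinc finger transcription factor (2.85), *Id2* (2.82), *Smad7*, which encodes an inhibitory SMAD (2.81), and *Nog*, which encodes the secreted BMP antagonist noggin (2.45). Apart from *Id3*, none had a log2 fold change as large as that of *Cpm*, which the selection had fixed for genes outside the Id family that met its limits. *Bambi* was called in only 1 of the 6 fits that left out a library (log2 fold changes from 0.42 to 0.67), and *Runx2* was lost without BMP7 3, where its fold fell under 1.2.

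Since most of the 4 genes are best known from cells other than mammary epithelium, marker genes of such cells were summed in each library. Of 8 osteoblast markers, *Alpl*, *Sp7* and *Phex* were tested and all were higher, and the summed level was between 3.72 and 4.24 CPM in Ctrl and between 14.5 and 20.7 with BMP7. With BMP7 this sum was mostly *Alpl*, at 9.55, 12.7 and 8.43 CPM in BMP7 1, 3 and 4, which was already named above by its rise. *Sp7* is also one of the BMP targets above, as is *Eng* among the endothelial markers. *Sost* had no count and *Bglap*, *Bglap2*, *Ibsp* and *Dmp1* at most 5 in any library. Fibroblast markers summed to between 115 and 127 CPM in Ctrl and between 103 and 121 with BMP7, with 3 of 7 tested genes higher and 1 lower. This sum was mostly *Col1a1*, the lower gene, and *Pdgfra*, which was not called. The higher genes were *Dcn*, *Col1a2* and *Col3a1* (log2 fold changes 1.67, 1.65 and 0.65). *Dcn* was at 1.74 CPM in BMP7 1 and 1.73 in Ctrl 1, against 4.44 and 4.90 in BMP7 3 and BMP7 4. For 8 Schwann and neural crest markers the groups overlapped, at 15.0 to 16.3 and 13.6 to 17.6 CPM, with *Foxd3* at 0 and *Sox10* at most at 3 counts. Endothelial markers summed to between 16.3 and 17.7 CPM in Ctrl and between 26.4 and 28.2 with BMP7, and this sum was mostly *Pecam1*, which went from 14.4 ± 1.41 to 24.6 ± 1.01 CPM (SD, n = 3 each) and was called higher. *Eng* did not pass, and the other 6 endothelial markers had at most 8 counts in any library. Of the adipocyte markers 7 of 8 tested genes were higher, and of the macrophage markers 2 of 6 were lower in edgeR and 0 in DESeq2. Beside these marker counts, 5.99% of all tested genes were higher and 5.38% lower in edgeR. Between the BMP7 libraries the 4 genes differed by at most 1.36 times. In BMP7 1 the adipocyte, osteoblast and endothelial sums were 27.0, 17.1 and 26.4 CPM. The highest Ctrl library had 24.99, 4.24 and 17.7 CPM, in that order. The part of such markers in the levels of *Myoc*, *Atoh8*, *Tnn* and *Cpm* was not tested.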

How the data were processed

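Poly(A) RNA of HC11 cells was sequenced as read pairs. The authors aligned them with subjunc of Subread 2.0.3 and counted fragments on exons per gene name with featureCounts 2.0.1, ignoring strand and leaving out fragments with several positions or genes. The deposited values are these raw counts, together with each gene's summed exon length. The methods name mm10 and the file header an mm39 annotation, whose positions are used here as listed, and promoters are from RefSeq on GRCm38.p6. Every table column belonged to these samples. Columns could be assigned to a group by name but not to a single labelled sample.

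In R 4.3.3, counts were filtered with filterByExpr, scaled by TMM and tested with edgeR 4.0.16 (quasi-likelihood, Benjamini-Hochberg over 15733 genes), and called where the adjusted p was under 0.05 and the fold over 1.2. The design took groups alone. The standard error (SE) was taken as the absolute log2 fold change over the root of the test's F statistic. CPM has no prior count. Ratios of summed counts have exact conditional binomial 95% intervals, and the limit for 0 counts is 3 counts per library, both for counting error only. Exon overlaps came from the deposited positions, and a BLAST 2.17.0 search of GENCODE vM21 transcripts (GRCm38) gave, for each of the 4 genes, no second gene sharing a stretch of 100 bases or more with 95% identity. The fits were tested on simulated counts.

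The 4 genes, and the lists, neighbours and markers, were chosen with earlier results of these data known. Named are the 4 genes, the 5 ranked next, up to 5 under 1 CPM with a rise as large, the 3 nearest profiles of each, called neighbours and the nearest on each side, called family genes and the 8 BMP targets with the largest change. Olfactomedin and integrin genes, E proteins, *Mdm2*, *Bambi*, *Runx2*, *Myocos*, *Tnxb*, *Tnr*, *Cpe*, *Cpd*, *Ace*, the kininogens and the markers are outside the rule, and their values had been seen when they were named. Alternatives were DESeq2 1.42.0, RLE and upper-quartile scaling, other filters, CPM limits and neighbour numbers, a prior count of 2, adjusted p alone, leaving out each library, and leaving out BMP7 3 and BMP7 4.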

Additional observations from a re-analysis of the deposited data

How the results depend on the processing

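The log2 fold changes of *Myoc*, *Atoh8*, *Tnn* and *Cpm* stayed positive under every alternative tried, between 6.22 and 7.56, 5.33 and 7.88, 5.15 and 7.20, and 5.02 and 5.16. The lower ends for *Myoc*, *Atoh8* (5.33) and *Tnn* were those with a prior count of 2. For *Atoh8*, the value ranged with each library left out in turn from 5.83 to 7.88, and for *Tnn* from 5.53 to 7.20, both highest without Ctrl 1. The 4 genes were the leading ones under most alternatives. With a filter of 10 counts in all libraries only 1 of them remained, *Cpm*, since the other 3 were removed by that filter, and with a mean limit of 0.5 CPM 2 remained among the first 4, because *Igfn1* and *Slc10a4* entered. Without Ctrl 1 *Hoxc13* led, without Ctrl 2 *Gm11514* was the third, and in both cases *Cpm* dropped out of the first 4, leaving 3 of them. Counts past the threshold ranged from 6 to 10 for neighbours (of 35 or 40, and 10 of 78 when counted more widely), 3 to 4 between *Tnn* and *Myoc*, 18 to 23 for BMP targets, 5 to 8 for family genes and 1302 to 2163 for all genes. The share of higher among called genes was 52.7% with TMM, 54.4% with RLE and 47% with upper-quartile scaling. No paired analysis was possible because the BMP7 columns are numbered 1, 3 and 4 and the BMP7 labels 1, 2 and 3, so that columns could be tied to groups but not to labelled replicates. No value could be given for *Myoc*, *Atoh8* and *Tnn* at 10 counts in every library. Their few Ctrl counts, most of them from Ctrl 1, limit the precision of their folds.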
